A study of Drosophila melanogaster with 12 samples.

Results

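Cholinergic transmission was followed through 10 genes, chosen by their FlyBase identifiers from the 17807 genes of the count table. They were *ChAT* (FBgn0000303) and *Ace* (FBgn0000024), which encode the enzymes that make and break down acetylcholine, 7 subunits of the nicotinic acetylcholine receptor (nAChR), namely *nAChRalpha1* (FBgn0000036), *nAChRalpha2* (FBgn0000039), *nAChRalpha3* (FBgn0015519), *nAChRalpha5* (FBgn0028875), *nAChRalpha6* (FBgn0032151), *nAChRbeta1* (FBgn0000038) and *nAChRbeta2* (FBgn0004118), and the muscarinic receptor *mAChR-A* (FBgn0000037). RNA came from dissected brain lobes of *Drosophila melanogaster* larvae at stage L3. Wildtype brains, of the Oregon_R genotype of the labels and the Oregon-R-P2 strain of the methods, served as the neuron-biased source. The neuroblast-biased source was *insc* > *aPKC* CAAX brains, in which *insc-Gal4* drives an active, membrane-bound atypical protein kinase C in neuroblasts, which are neural stem cells, so that these multiply at the expense of neurons. The m6A-null control was *Mettl3* null brains, which lack the methyltransferase that writes N6-methyladenosine (m6A) onto mRNA. All 3 sources are whole brain lobes and thus mixtures of cell types. Brain RNA of each genotype was divided between sequencing of total mRNA (input) and sequencing after anti-m6A immunoprecipitation (meRIP), with 2 libraries of each kind per genotype, 12 in all. The methods speak of biological replicate experiments but the labels give a number only, so the tests measure the spread between the libraries of a group, whatever its source.

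Acetylcholine is the main excitatory transmitter between neurons of the insect brain, in contrast to the neuromuscular junction of the fly, which uses glutamate. Choline acetyltransferase (*ChAT*) makes acetylcholine in the presynaptic terminal, a vesicular transporter loads it into vesicles, and acetylcholinesterase (*Ace*) ends the signal in the synaptic cleft. Nicotinic receptors are cation channels of 5 subunits, drawn from the alpha and beta subunits that the fly genome encodes, and are the targets of neonicotinoid and spinosyn insecticides. Muscarinic receptors act through G proteins, and mAChR-A is the fly counterpart of the Gq-coupled vertebrate receptors.

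Library totals ran from 4220420 to 31352131 counts, and all 10 genes passed the low-count filter in each fit. The labels were checked first. *Mettl3* had 28.1 and 27.9 CPM in wildtype input, where CPM are counts scaled to library size and by the trimmed mean of M-values (TMM). In neuroblast-biased input it was at 16.9 and 36.3 CPM, and input of *Mettl3* null brains held 11.1 and 2.71. Its meRIP level, 11.5 and 13.6 CPM in wildtype and 15.8 and 12.8 in neuroblast-biased libraries, was 2.99 and 3.48 without *Mettl3*, so that some reads still mapped to the gene. *aPKC* was at 143 and 160 CPM in wildtype input and at 532 and 437 in neuroblast-biased input. Summed over 8 neuron markers (*elav*, *nSyb*, *brp* and others), wildtype input held 4390 and 4050 CPM, neuroblast-biased input 1530 and 1560 and *Mettl3* null input 4820 and 5010. Over 5 neuroblast markers the sums were 515 and 571, 2670 and 2780, and 493 and 560 CPM. The 7 markers of salivary gland and fat body summed to 231 and 239 CPM in wildtype input, against 31.8 and 11 in neuroblast-biased input, where 5 and 4 of the 7 were at 0, and 75.6 and 39.9 in *Mettl3* null input. The long non-coding RNA *cherub* took 15.46% and 18.36% of the counts in neuroblast-biased meRIP libraries, 7.36% and 8.37% in neuroblast-biased input and 1.24% to 2.98% elsewhere.

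In the reference annotation (assembly BDGP6.54), *ChAT* lies on 3R from 18705501 to 18732344 and *Ace* on 3R from 13222951 to 13259517. *nAChRalpha1* (3R from 24393896 to 24457157), *nAChRalpha2* (3R from 24485428 to 24491147) and *nAChRbeta2* (3R from 24509228 to 24515106) are near neighbours. *nAChRalpha3* lies on X from 8276200 to 8367169, *nAChRbeta1* on 3L from 4429349 to 4435993, *nAChRalpha5* on 2L from 14040170 to 14094401 and *nAChRalpha6* on 2L from 9793317 to 9886250. *ChAT* shares 15.1% of its exon sequence, on the same strand, with *VAChT*, the vesicular transporter encoded within the same locus. Reads of that stretch cannot be assigned to either gene. Both genes start at base 18705501, so the stretch includes the gene start and may take in 5′ UTR sequence. Whether its reads were counted is not given in the sources used here, which limits the meRIP values of both genes. A further 2.39% of the exon sequence of *nAChRalpha3* and 2.05% of that of *mAChR-A* lie opposite other genes, and the strand setting of the counting is not given in the sources used here.

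AAAC, the core of the sequence motif of m6A in *Drosophila*, was counted in the annotated 5′ UTRs, the region to which m6A of fly mRNA is mostly assigned. The motif that the study found enriched is AAACV, where V is any base but T. The counts of AAAC given here also include AAACT. Among 13365 protein-coding genes with an annotated 5′ UTR, the median length (all annotated 5′ UTR segments of a gene joined) was 146 bases, 68.7% held at least 1 AAAC on the sense strand, and the density was 0.914 per 100 bases. Sense-strand AAAC numbered 31 in the 2371 bases of *nAChRalpha6*, 23 in the 1863 of *nAChRalpha5*, 17 in the 1480 of *nAChRalpha1* and 11 in the 1361 of *nAChRalpha3*. It numbered 14 in the 1062 bases of *Ace*, 9 in the 870 of *mAChR-A* and 6 in the 521 of *nAChRalpha2*. In the shorter 5′ UTRs, *nAChRbeta2* had 4 in 136 bases, *nAChRbeta1* had 1 in 240 and *ChAT* had 1 in 428. Set against 5′ UTRs within 10% of the same length, these counts were not rare for most members: 12.3% of such 5′ UTRs held at least as many AAAC as *nAChRalpha6*, 21.7% as many as *nAChRalpha5*, 17.9% as many as *Ace* and 62.2% as many as *nAChRalpha3*, while 4.35% held as many as *nAChRbeta2*, 85.6% as many as *nAChRbeta1* and 95.6% as many as *ChAT*. The long 5′ UTRs of the alpha subunits thus held many copies of the core, at 0.808 (*nAChRalpha3*) to 1.307 (*nAChRalpha6*) per 100 bases. The densest of the members was *nAChRbeta2*, at 2.941 per 100 bases. *Ace* had 1.318, *mAChR-A* 1.034, *nAChRbeta1* 0.417 and *ChAT* 0.234.

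The 20-base windows around a single AAAC (capitals) show what this core looks like in the genes that differ most in the immunoprecipitation described below. For *nAChRalpha6*, *nAChRalpha5* and *nAChRalpha1* the AAAC nearest to the gene start is given, and for *ChAT* and *nAChRbeta1* the only AAAC of the 5′ UTR. The sequences are from the RefSeq copy of the Release 6 genome, written 5′ to 3′ on the strand of the gene. They lie at chr2L:9886037-9886056 (minus), chr2L:14041370-14041389 (plus), chr3R:24457087-24457106 (minus), chr3R:18705893-18705912 (plus) and chr3L:4429377-4429396 (plus), in that order. A match is a description of these letters and does not mark a methylated base. In the windows of *nAChRalpha6* and *nAChRbeta1* the base after AAAC is T, which the AAACV motif of the study leaves out.
nAChRalpha6: ataaaaagAAACttgctggc
nAChRalpha5: attggaatAAACaaatataa
nAChRalpha1: gtctcaccAAACaaagaaaa
ChAT: aaggggccAAACcaaccgga
nAChRbeta1: ccgcacccAAACtgacggct

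Levels of the members were compared with each other per length, as TPM (counts divided by the length of the joined exons and scaled to a fixed library sum). In wildtype input *Ace* was highest at 132 TPM ± 8.51 (SD, n = 2), followed by *nAChRalpha6* at 92.6 ± 2.22 and *nAChRalpha5* at 65.1 ± 10.8. *nAChRalpha1* (59.3 ± 7.7) and *nAChRalpha2* (58.8 ± 1.67) came next, and the 2 libraries of these and of *nAChRalpha5* overlapped. Below them stood *nAChRbeta1* at 50.2 ± 4.45, *mAChR-A* at 40.6 ± 3.02, *ChAT* at 35.7 ± 6.73, *nAChRbeta2* at 31.2 ± 6.27 and *nAChRalpha3* at 17.7 ± 1.43 TPM. *ChAT* overlapped with both of its neighbours in that order. In neuroblast-biased input *nAChRalpha5* had the highest TPM of the 10 genes, 39.7 and 46.6, with *Ace* next at 27 and 38.5. The libraries of these 2 genes did not overlap, whereas in wildtype *Ace* was far above *nAChRalpha5*.

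**Figure D1:**
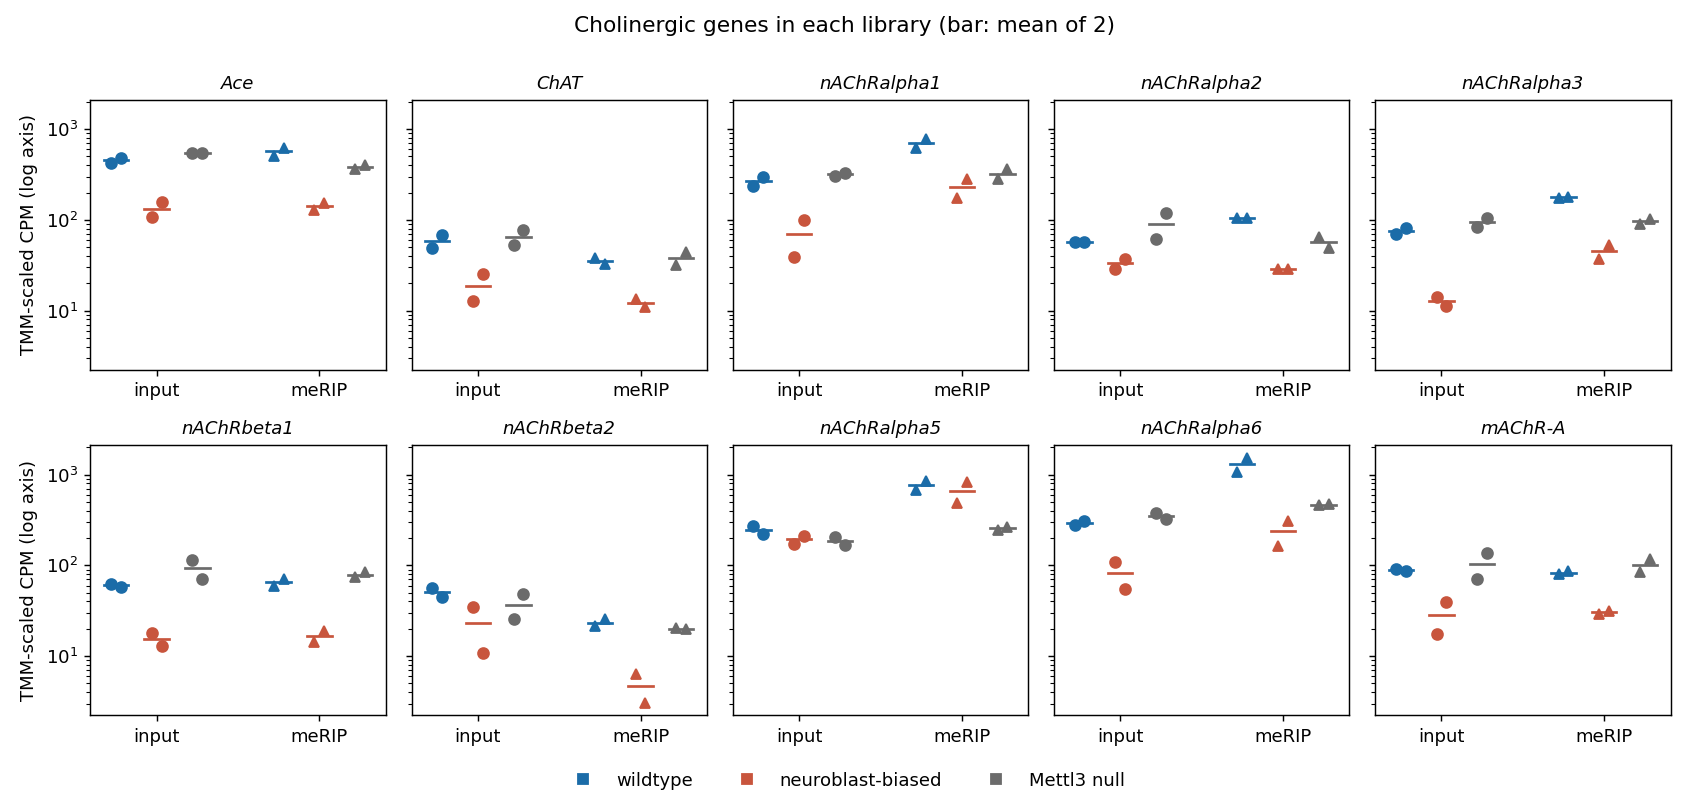
TMM-scaled CPM (log axis) of each of the 10 cholinergic genes in each of the 12 libraries. Circles are input and triangles meRIP libraries, colours are genotypes and bars are means of 2 libraries. In input, both neuroblast-biased libraries lie below both wildtype libraries for each gene, while for nAChRalpha5 the genotypes stay close together (174 to 271 CPM in these 4 libraries).

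The first comparison asked how abundant cholinergic mRNA was in neuroblast-biased relative to neuron-biased brains. In input, *Ace* and the subunits *nAChRalpha1*, *nAChRalpha3*, *nAChRalpha6* and *nAChRbeta1* were lower in neuroblast-biased brains, by 3.44- to 6.29-fold in the model, and *nAChRalpha5* was the member with the smallest difference. Bulk RNA cannot tell fewer cholinergic or cholinoceptive neurons from less RNA per cell. Across the 10 genes, 5 were called lower and 0 higher (limma-voom, Benjamini-Hochberg adjusted p under 0.05 over 9423 genes; edgeR and DESeq2 each called 7 lower and 0 higher), where 8.09% of all genes tested were called lower and 5.28% higher. The median log2 fold change (log2FC) was -1.72 for the 10 genes and -0.17 for all genes. In each of the 10 genes both neuroblast-biased libraries were below both wildtype libraries, an order that 32.4% of all genes showed.

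For the 2 enzymes the values were as follows. *Ace* was at 423 and 485 CPM in wildtype input and at 107 and 159 in neuroblast-biased input, far apart, and its log2FC was -1.78 (SE 0.21, adjusted p 4.55e-05). *ChAT*, the gene that defines a cholinergic neuron, was at 49.4 and 67.5 CPM in wildtype and at 12.6 and 25.2 in neuroblast-biased input. The groups did not overlap, but the spread between libraries was wide and the log2FC of -1.66 (SE 0.55) missed the threshold (adjusted p 0.0624). Over the alternative settings *ChAT* was called in 6 of 16, with adjusted p from 0.000867 to 0.567.

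Among the nicotinic subunits, *nAChRalpha6*, the target of spinosyns, fell from 281 and 305 CPM in wildtype to 108 and 55.5 in neuroblast-biased input (log2FC -2.01, SE 0.28, adjusted p 0.000221). *nAChRalpha1* had 236 and 297 CPM in wildtype and 38.9 and 100 in neuroblast-biased input, a log2FC of -2.03 (SE 0.33, adjusted p 0.000825). In both genes the higher neuroblast-biased library was below the lower wildtype library, at 108 against 281 CPM for *nAChRalpha6* and 100 against 236 for *nAChRalpha1*. Their neuroblast-biased libraries differed from each other, and the log2FC of *nAChRalpha1* ran from -2.82 to -1.46 with a library left out. *nAChRalpha3* had the steepest difference, with 69.7 and 81.7 CPM against 14.2 and 11.3 (log2FC -2.65, SE 0.6, adjusted p 0.00805). *nAChRbeta1*, a subunit that pairs with several alpha subunits, had 63.1 and 58.1 CPM against 17.9 and 12.9 (log2FC -2.03, SE 0.62, adjusted p 0.043). These last calls were lost when single libraries were left out: *nAChRalpha3* had adjusted p 0.0717 without the first wildtype library, 0.117 without the second and 0.052 without the second neuroblast-biased library, and *nAChRbeta1* had 0.216, 0.223 and 0.191, which left 3 genes called. Without the first neuroblast-biased library 4 were called, *nAChRbeta1* being lost (0.122). Over all 16 alternatives the adjusted p ran from 5.89e-17 to 0.117 for *nAChRalpha3* and from 6.8e-07 to 0.223 for *nAChRbeta1*.

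The other members were not called in this comparison. *nAChRalpha5* had 271 and 224 CPM in wildtype and 174 and 213 in neuroblast-biased input. Its libraries nearly touched, and the log2FC of -0.29 (SE 0.2, adjusted p 0.381) had a 95% interval from -0.72 to 0.14. *nAChRalpha2* had 56.9 and 57.2 CPM against 28.9 and 37.2 (log2FC -0.77, SE 0.49, adjusted p 0.336). *nAChRbeta2* had 56.9 and 44.7 CPM against 34.9 and 10.9, the most uneven neuroblast-biased pair of the group (log2FC -1.48, SE 0.59, adjusted p 0.122), and its log2FC ran from -2.14 to -0.47 with a library left out. *mAChR-A* had 92.1 and 86.7 CPM against 17.7 and 39.3 (log2FC -1.64, SE 0.53, adjusted p 0.0571) and was called under 9 of 16 alternatives, with adjusted p from 0.00103 to 0.262.

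Genes that serve the same synapse beyond the 10 members moved in both directions. Of the 10 other cholinergic genes in the table, 8 were tested in input, 5 were called lower and 1 higher. The lower genes were *VAChT* (log2FC -1.5), *nAChRalpha4* (-1.54), *nAChRalpha7* (-2.61), *qvr* (-2.25), a membrane-anchored modulator of nicotinic receptors and potassium channels, and *Hasp* (-2.06), a synaptic matrix protein. *hig*, which encodes a secreted protein of the cholinergic synaptic cleft, was higher, with 156 and 114 CPM in wildtype and 370 and 394 in neuroblast-biased input (log2FC 1.6, SE 0.2, adjusted p 8.64e-05). *ChT* and *mAChR-B* had few counts and were not called (log2FC -1.64 and -0.78), and *nAChRbeta3* and *mAChR-C* were too low to test. *ChT* shares 69.5% of its exon sequence, on the same strand, with another gene, so its counts may miss reads of that stretch. Other transmitter systems were described in the same way: 3 of 8 tested GABA genes (*Gad1*, -1.97; *Rdl*, -1.99), 6 of 8 glutamate genes and 1 of 8 monoamine genes (*Vmat*, -2.81) were called lower and 0 higher, with medians of -1.68, -1.73 and -4.07. In the neuroblast-biased input libraries 4 and 3 of the 8 monoamine genes were at 0, which limits what their median of -4.07 can show. In meRIP of the same genotypes the monoamine median was -1.96. The neuron marker list had an input median of -1.93, with 7 of 8 genes lower. The glial marker list had a median of -1.98, with 4 of 6 lower. Glial sums were 945 and 964 CPM in wildtype against 711 and 570 in neuroblast-biased input. The part that the lower neuronal and glial RNA, or the salivary gland and fat body RNA in wildtype libraries, had in the cholinergic values was not tested.

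**Figure D2:**
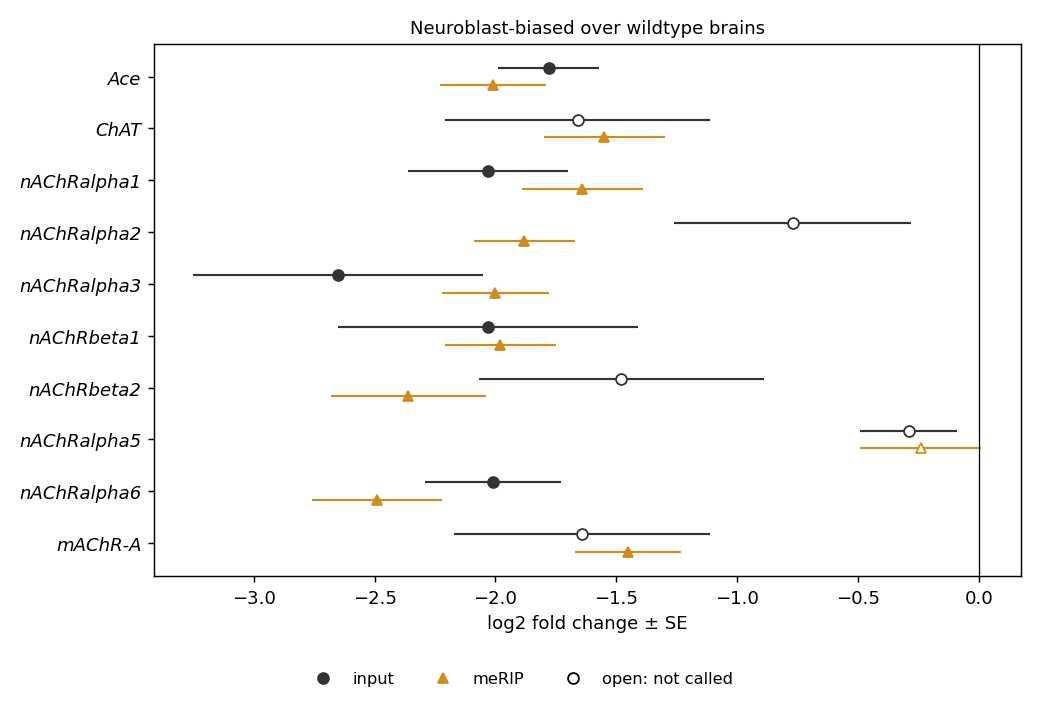
Log2 fold change ± SE (limma-voom) of the 10 cholinergic genes in neuroblast-biased over wildtype brains, in input (circles) and in meRIP (triangles). Filled symbols were called at adjusted p under 0.05. In input 5 of 10 are filled and in meRIP 9 of 10, and nAChRalpha5 lies nearest to 0 in both (-0.29 and -0.24).

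Between *Mettl3* null and wildtype input, limma-voom called 0 of the 10 genes, 0 had an unadjusted p under 0.05, and edgeR and DESeq2 also called 0. *Mettl3* itself was not called by limma-voom in this comparison (log2FC -2.35, SE 0.92, adjusted p 0.785), which limits what the absence of calls can show. Over all genes 0.117% were called higher and 0.138% lower, and 595 of 9423 had an unadjusted p under 0.05. The log2FC ran from -0.46 (*nAChRbeta2*) to 0.59 (*nAChRalpha2* and *nAChRbeta1*), with a median of 0.22. Both *Mettl3* null libraries were above both wildtype libraries in 6 of the 10 genes, an order that 18.1% of all genes showed, and below them in 1 (*nAChRalpha5*), as in 20.7% of all genes. *Ace*, for instance, was at 541 and 543 CPM against 423 and 485 (log2FC 0.23, SE 0.14, adjusted p 0.832). *nAChRalpha5* came nearest to the threshold, with 203 and 167 CPM in *Mettl3* null against 271 and 224 in wildtype input (log2FC -0.38, SE 0.19, unadjusted p 0.0626, adjusted p 0.804). *ChAT*, at 52.3 and 76.7 CPM in *Mettl3* null input, overlapped with wildtype and had a 95% interval from -0.67 to 0.78. The 95% intervals of the 10 genes together spanned -1.39 to 1.38, so that for the least precise members differences near these ends still lay within the interval.

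The second group of comparisons asked whether meRIP recovered more of a transcript from wildtype than from *Mettl3* null brains. The 5 alpha subunits among the members were higher in wildtype meRIP, by 1.83- to 2.96-fold in the model, and *ChAT*, *nAChRbeta1*, *nAChRbeta2*, *mAChR-A* and *Ace* were not called. The difference between alpha subunits and these genes was itself not tested. Of all genes tested, 16.6% were called higher and 6.11% lower (9493 genes). The median log2FC was 0.72 for the 10 genes and -0.05 for all genes. Both wildtype libraries were above both *Mettl3* null libraries in 7 of the 10 genes and in 31.2% of all genes.

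*nAChRalpha5* had 670 and 850 CPM in wildtype meRIP and 246 and 266 in the null, and its log2FC was 1.56 (SE 0.24, adjusted p 1.11e-05). *nAChRalpha6* was the most abundant member in wildtype meRIP, with 1060 and 1540 CPM against 458 and 478 (log2FC 1.45, SE 0.27, adjusted p 0.000146). For both subunits each wildtype library exceeded each null library more than the replicates differed. *nAChRalpha1* had 621 and 771 CPM against 282 and 362 (log2FC 1.11, SE 0.24, adjusted p 0.001). *nAChRalpha2* had 104 and 105 CPM against 64.1 and 49.4 (log2FC 0.88, SE 0.21, adjusted p 0.00273), and *nAChRalpha3* had 174 and 179 against 90.9 and 103 (log2FC 0.87, SE 0.22, adjusted p 0.0033). In these 3 subunits the groups were likewise apart, by smaller amounts.

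The remaining members were not called. *ChAT* had 38.1 and 33 CPM in wildtype meRIP and 31.8 and 43.9 in *Mettl3* null meRIP, fully overlapping (log2FC -0.04, SE 0.24, adjusted p 0.924, 95% interval from -0.52 to 0.44). *nAChRbeta1* had 59.5 and 70.5 against 74.3 and 83.6 CPM (log2FC -0.28, adjusted p 0.391), and *nAChRbeta2* had 21.4 and 25.5 against 20.6 and 19.7 (log2FC 0.2, adjusted p 0.66). *mAChR-A* had 80.4 and 86 against 85.1 and 117 CPM (log2FC -0.26, adjusted p 0.43). *Ace* stood between these and the alpha subunits, with 508 and 626 against 362 and 405 CPM (log2FC 0.56, SE 0.22, adjusted p 0.0728), and was called under 5 of 16 alternatives, with adjusted p from 0.0078 to 0.965. A p above the threshold does not show that these transcripts were alike in both genotypes. For *ChAT*, reads of the exon stretch shared with *VAChT* may also be missing.

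The calls in meRIP depended on the scaling of the libraries. With library size alone the median of all genes moved by -0.58 (log2) and 23.2% of called genes were higher, against 73.1% with TMM factors and 53.1% with upper-quartile factors. Under library size alone *nAChRalpha1*, *nAChRalpha5* and *nAChRalpha6* were still called higher, *nAChRalpha2* (log2FC 0.29, adjusted p 0.355) and *nAChRalpha3* (0.3, adjusted p 0.279) were not, and *nAChRbeta1* (-0.85, adjusted p 0.00727) and *mAChR-A* (-0.81, adjusted p 0.00834) were called lower. Over the alternatives the adjusted p ran from 0.00039 to 0.355 for *nAChRalpha2*, 0.000228 to 0.279 for *nAChRalpha3*, 0.00727 to 0.53 for *nAChRbeta1* and 0.00834 to 0.72 for *mAChR-A*. The number of members called higher was 3 without either wildtype meRIP library in turn: *nAChRalpha2* and *nAChRalpha3* lost the call without the first library, and *nAChRalpha1* (adjusted p 0.0501, at most this and at least 1.08e-06 over the alternatives) and *nAChRalpha3* (0.0548) without the second. It was 4 without either *Mettl3* null library, *nAChRalpha3* being lost without the first (0.0758) and *nAChRalpha2* without the second (0.143).

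The alpha subunits outside the 10 members showed the same direction. *nAChRalpha4* had 178 and 234 CPM in wildtype meRIP and 44.2 and 62.2 in the null (log2FC 1.99, SE 0.26, adjusted p 1.32e-06), and *nAChRalpha7* had 346 and 404 against 131 and 182 (log2FC 1.27, SE 0.23, adjusted p 9.38e-05). Over the whole receptor family, limma-voom called 7 of 7 alpha subunits and 0 of 3 beta subunits higher, although *nAChRbeta3* had under 2 CPM in each meRIP library and its exons lie wholly opposite another gene. *qvr* (1.17) and *hig* (1.05) were also higher and *Hasp* (-1.14) lower, while *VAChT* (-0.56, adjusted p 0.0659) was not called. In the other lists, 1 of 9 GABA genes, 2 of 8 glutamate genes, 1 of 8 monoamine genes, 1 of 8 neuron markers, 2 of 5 neuroblast markers and 3 of 7 salivary gland and fat body markers were called higher, and 2 of 6 glial markers lower. Salivary gland and fat body markers summed to 382 and 436 CPM in wildtype meRIP and 65.5 and 30.6 in *Mettl3* null meRIP, and glial markers to 725 and 776 against 1440 and 1390; their part in these differences was not tested.

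**Figure D3:**
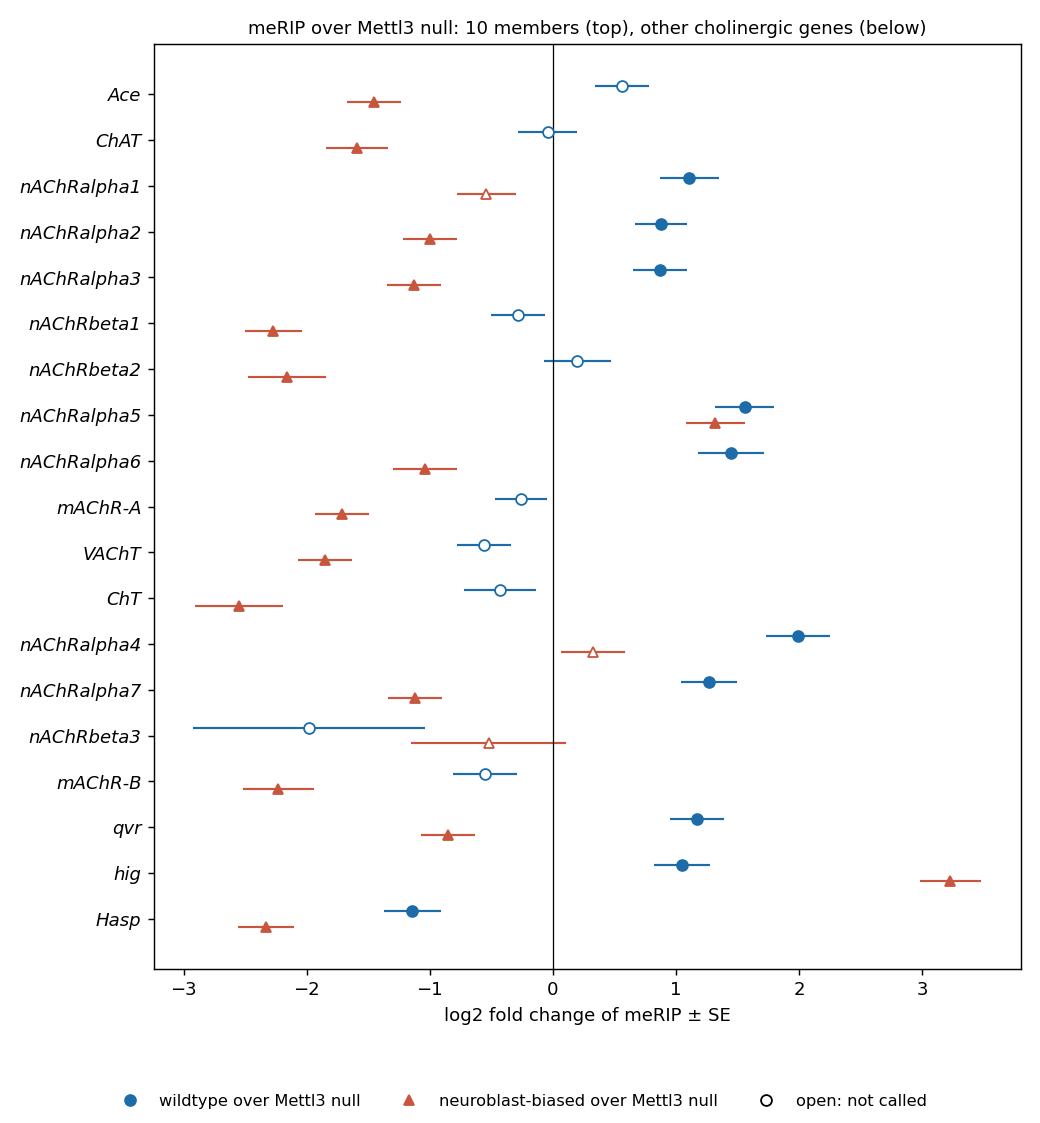
Log2 fold change ± SE of meRIP counts in wildtype (circles) and in neuroblast-biased brains (triangles) over the same Mettl3 null libraries, for the 10 members and 9 other cholinergic genes (mAChR-C was too low to test). Filled symbols were called at adjusted p under 0.05. The alpha subunits lie to the right in wildtype (0.87 to 1.99), whereas in neuroblast-biased brains only nAChRalpha5 and hig among the genes plotted were called higher.

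In neuroblast-biased brains the same immunoprecipitation gave less cholinergic RNA than in *Mettl3* null brains for 8 members. These were called lower and 1 was called higher, where 18.2% of all genes were called lower and 20.6% higher (the share of higher calls was 53.1% of called genes with TMM factors and 20.2% with library size alone). The *Mettl3* null libraries are those of the preceding comparison, and their input held more neuronal RNA than the neuroblast-biased input, as the marker sums show. *nAChRalpha5* had 492 and 827 CPM in neuroblast-biased meRIP against 246 and 266 in the null (log2FC 1.32, SE 0.24, adjusted p 9.53e-05), the only member higher. *nAChRalpha1*, with 176 and 279 against 282 and 362 CPM, also lay lower without overlap but was not called (log2FC -0.54, SE 0.24, adjusted p 0.0764). It was called under 6 of 16 alternatives, with adjusted p from 0.000102 to 0.634. *nAChRbeta1* was the lowest relative to *Mettl3* null, with 14.2 and 19 CPM against 74.3 and 83.6 (log2FC -2.27, adjusted p 1.21e-08). The other 7 ranged from -1 (*nAChRalpha2*) to -2.16 (*nAChRbeta2*), and of these *nAChRalpha6* (-1.04, adjusted p 0.00208) lost its call without the first neuroblast-biased library (-0.56, adjusted p 0.0933, against 2.28e-07 to 0.0933 over the alternatives). Among other cholinergic genes *hig* stood out, with 755 and 1100 CPM against 81.3 and 118 (log2FC 3.23), while *nAChRalpha4* was not called (0.33).

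Set directly against wildtype, neuroblast-biased meRIP was lower for 9 of the 10 genes and higher for 0, where 23.8% of all genes were called lower and 19.7% higher and where 36.2% of all genes had both neuroblast-biased libraries below both wildtype libraries, as 9 of the 10 did. *nAChRalpha6* fell furthest, from 1060 and 1540 CPM to 165 and 312 (log2FC -2.49, SE 0.27, adjusted p 2.41e-08). *nAChRbeta2* fell from 21.4 and 25.5 to 6.37 and 3.04 CPM (log2FC -2.36), and *ChAT*, which was not called in input, fell from 38.1 and 33 to 13.4 and 10.9 CPM (log2FC -1.55, SE 0.25, adjusted p 1.07e-05). The smallest called difference was that of *mAChR-A*, with 29.1 and 31.8 CPM in neuroblast-biased meRIP (log2FC -1.45). *nAChRalpha5* was the exception, since its 492 and 827 CPM overlapped with the wildtype range (log2FC -0.24, SE 0.25, adjusted p 0.462). Without the second neuroblast-biased library it too was called lower (log2FC -0.63, adjusted p 0.0441), and without the first its log2FC was 0.15; the adjusted p over 16 alternatives ran from 0.0441 to 0.906.

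Because a meRIP level carries the abundance of the transcript, the ratio of meRIP to input was compared next. In wildtype brains the ratio was 6.47 for *nAChRalpha6*, 4.66 for *nAChRalpha5*, 3.85 for *nAChRalpha1*, 3.45 for *nAChRalpha3* and 2.75 for *nAChRalpha2*. It was 1.85 for *Ace*, 1.62 for *nAChRbeta1*, 1.41 for *mAChR-A*, 0.889 for *ChAT* and 0.717 for *nAChRbeta2*. In *Mettl3* null brains, where the ratio measures the background of the immunoprecipitation, *nAChRalpha5* and *nAChRalpha6* remained at 2.15 and 2.06, the other 3 alpha subunits were between 1.05 and 1.58, and *ChAT* was at 0.885. Over 9918 genes the median log2 ratio was -0.06 in wildtype brains, 0.27 in the neuroblast-biased source and 0.16 in the null. Part of the recovery of the alpha subunits was therefore measured without the methyltransferase too, and *ChAT* had nearly the same ratio in both genotypes. The *ChAT* ratios may leave out the exon stretch at the gene start that is shared with *VAChT*, so m6A there could go unseen.

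Tested as an interaction over all 12 libraries, the ratio was higher in wildtype than in *Mettl3* null brains for 1 member and lower for 0, where 5.22% of all genes were called higher and 0.413% lower. Those 518 higher calls over all genes fell to 1 without the second wildtype input library, 95 without the first *Mettl3* null meRIP library and 122 without the first wildtype input library. That member was *nAChRalpha6* (log2 difference 1.65, SE 0.4, adjusted p 0.0235). The other alpha subunits had differences of 1.39 (*nAChRalpha2*, adjusted p 0.0716), 1.31 (*nAChRalpha1*, 0.059), 1.13 (*nAChRalpha3*, 0.0595) and 1.12 (*nAChRalpha5*, 0.1), and *Ace* of 0.76 (0.104). *ChAT* (0.01), *nAChRbeta1* (0.26), *nAChRbeta2* (-0.34) and *mAChR-A* (-0.13) had smaller differences and were not called. The 95% intervals of the members together spanned -1.54 to 2.51, so these values do not show that the ratios were alike. Of the other cholinergic genes *nAChRalpha7* was called (1.34, adjusted p 0.0328). The count of members varied with the setting: 0 with edgeR, 6 with DESeq2, 3 with the replicate block and 0 to 5 with a library left out, and the call of *nAChRalpha6* held under 15 of 23 alternatives (adjusted p from 0.00056 to 0.184). It was lost without any 1 of 7 of the 12 libraries, namely each wildtype or *Mettl3* null library but the first wildtype meRIP library. With library size alone the median of all genes moved by -0.51 and 53.4% of called genes were higher, in place of 92.7%.

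**Figure D4:**
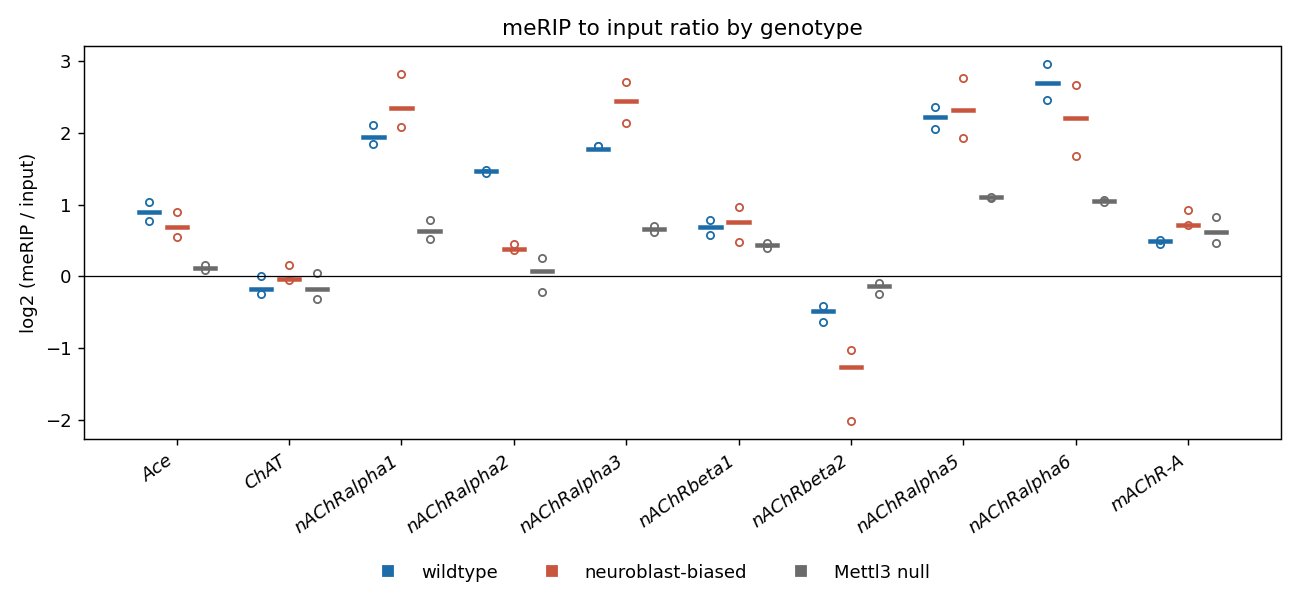
Log2 ratio of meRIP to input by genotype for the 10 cholinergic genes, from the 12-library scaling. Bars are the modelled ratios and open circles each meRIP library over the mean input of its genotype. The ratios of nAChRalpha1, nAChRalpha3, nAChRalpha5 and nAChRalpha6 lie between 1.78 and 2.69 in wildtype and between 0.63 and 1.1 in Mettl3 null brains. Those of ChAT lie between -0.18 and -0.04 in all 3 genotypes, and may lack reads of the exon stretch shared with VAChT.

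Against the same *Mettl3* null libraries, the neuroblast-biased ratio was higher for 1 member and lower for 0, where 4.46% of all genes were called higher and 0.242% lower. *nAChRalpha1* was called (log2 difference 1.72, SE 0.45, adjusted p 0.0386), with a ratio of 5.1 in neuroblast-biased against 1.55 in *Mettl3* null brains. *nAChRalpha3*, with ratios of 5.42 and 1.58, had the larger difference but a wider error (1.78, SE 0.54, adjusted p 0.0764). *nAChRalpha5* (1.22, adjusted p 0.0729) and *nAChRalpha6* (1.16, adjusted p 0.189) were not called, and the ratio of *nAChRalpha2*, 1.3, was close to its 1.05 in *Mettl3* null brains (0.31, adjusted p 0.793). The call of *nAChRalpha1* held under 6 of 23 alternatives, with adjusted p from 0.0029 to 0.181, and the number of members called was 3 with the replicate block and 0 to 4 with a library left out. The call was lost without any 1 of 10 of the 12 libraries, and kept only without the second neuroblast-biased input or the first neuroblast-biased meRIP library. The other cholinergic gene called was *hig* (1.81, adjusted p 0.00661).

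Between neuroblast-biased and wildtype brains no member was called different in ratio. limma-voom called 0 members and 0% of all genes in either direction, with 1 member and 674 of 9918 genes at an unadjusted p under 0.05, and edgeR and DESeq2 called 0 members. Over all genes edgeR called 2 higher and DESeq2 29 higher and 11 lower. The log2 differences ran from -1.08 (*nAChRalpha2*, SE 0.49, 95% interval from -2.13 to -0.03, unadjusted p 0.0448, adjusted p 0.692) to 0.65 (*nAChRalpha3*), with a median of 0.09 against 0.2 for all genes. *nAChRalpha5* had ratios of 5.01 and 4.66 (difference 0.1, 95% interval from -0.67 to 0.88), and *ChAT* had 0.97 and 0.889 (0.13, from -1.06 to 1.31). The intervals of the 10 genes together spanned -2.4 to 1.83, so that for the least precise, *nAChRbeta2*, a several-fold change of the ratio still lay within the interval.

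The genes whose log2 CPM followed that of *ChAT* most closely over the 12 libraries, of 9917 compared, were *unc79* (Pearson r 0.974), *Arc1* (0.972), *CG2269* (0.972), *CG31705* (0.969) and *CG42346* (0.969), and 139 genes reached 0.9. Among the members *mAChR-A* had 0.905 and *Ace* 0.887, whereas *nAChRalpha1* had 0.622 and *nAChRalpha5* -0.126. These points share genotypes and library kinds, so that the values describe the pattern over 6 groups and carry no test.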

How the data were processed

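The deposited values were whole-number counts for 17807 genes in 12 libraries, which the authors had not normalised. Per the study's methods, Trimmomatic trimmed the reads, STAR mapped them to BDGP6 and featureCounts counted the meRIP reads; kallisto is also named, so the counter behind the input counts is uncertain. Strandedness, removal of duplicates and versions are not given in the sources used here, and counts without molecular identifiers are not independent molecules. Groups came from the sample titles.

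limma-voom (limma 3.58.1, edgeR 4.0.16, R 4.3.3), which the study names for meRIP counts, was used here for input and the ratio too, after filterByExpr (minimum count 10) and TMM scaling. The 6 input libraries were fitted together, the 6 meRIP libraries together, and the ratio over all 12, with a mean per group, a two-sided moderated test and Benjamini-Hochberg adjustment over all genes in each of 8 comparisons. CPM use the factors of the libraries of the same kind, and ratios those of the 12-library fit. The fit was tested on simulated data. Gene names, coordinates and lengths came from Ensembl release 115, which held 17710 of the identifiers. Sequences were read at these coordinates from the RefSeq genome, where 99.827% of 30618 annotated start codons were ATG. The genes named were the 10 members, the other cholinergic genes, up to 3 examples from other transmitter lists, the 5 genes most like *ChAT*, and *Mettl3* and *aPKC*. Members and lists were chosen with earlier results of these data known. Alternative settings were the quasi-likelihood test of edgeR, DESeq2 1.42.0, sample quality weights, other scaling, other filters, only the groups compared, a replicate block and leaving out each library.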

Additional observations from a re-analysis of the deposited data

How the results depend on the processing

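Of 830 values of single genes under another setting, 753 kept their direction and call, 11 lost and 49 gained a call and 17 changed sign; with a library left out, 568 of 660 kept both, 31 lost and 24 gained a call and 37 changed sign. No gene called in the reported fit changed sign, and edgeR and DESeq2 also called 0 members wherever limma-voom called 0 in a direction. The cause of these changes was not tested.

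For wildtype over *Mettl3* null meRIP, library size alone gave 3 members higher and 2 lower, with *Ace* at -0.01 and *nAChRbeta2* at -0.37. For the wildtype over *Mettl3* null ratio, members called higher were 0 with edgeR, 6 with DESeq2, 5 with quality weights, 4 with RLE factors, 3 with a mean of 10 counts and 6 with only the groups compared; *ChAT* was at -0.01 with weights, -0.51 with library size and -0.11 with upper quartiles, and *nAChRbeta1* at -0.25 with library size. For the neuroblast-biased over *Mettl3* null ratio they were 3 with DESeq2 and 0 with weights, library size, upper quartiles, RLE factors, no filter or only the groups compared, and edgeR called *nAChRalpha3* in place of *nAChRalpha1*. There, library size put *ChAT* at -0.33, *nAChRalpha2* at -0.14, *nAChRbeta1* at -0.09 and *mAChR-A* at -0.35, and upper quartiles put *mAChR-A* at -0.03. For the neuroblast-biased over wildtype ratio, DESeq2 put *ChAT* at -0.05 and *nAChRbeta1* at -0.12, and RLE factors put *ChAT* at -0.04, *nAChRbeta1* at -0.08 and *nAChRalpha5* at -0.05.

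Whether same-numbered input and meRIP libraries share RNA is not given in the labels. Deviations of same-numbered libraries correlated at -0.05 to 0.06 (0.02 to 0.05 within a genotype), and the numbers were not taken as pairs in the reported fit. Such weak correlations cannot show that the libraries are unpaired. The log2 differences between input replicates had SDs of 1.54 to 2.54 over all genes, a spread that could hide shared RNA. With the replicate block, members called were 6 lower in input, 6 higher in wildtype over *Mettl3* null meRIP, and 3 higher in each ratio over *Mettl3* null; with the block within genotype these last were 4 and 2, and *ChAT* was at -0.05 in the first. In all genes, meRIP calls over *Mettl3* null in wildtype numbered 1821 higher and 872 lower with the block, against 1576 and 580.

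With a library left out, members called were 3 to 7 lower in input, 3 to 6 higher in wildtype over *Mettl3* null meRIP, and 0 to 5 and 0 to 4 higher in the wildtype and neuroblast-biased ratios. Values that changed sign ran from -0.22 to 0.36 (*ChAT*) and -0.31 to 0.62 (*mAChR-A*) in *Mettl3* null over wildtype input, -0.37 to 0.06 (*ChAT*) in wildtype over *Mettl3* null meRIP and -0.63 to 0.15 (*nAChRalpha5*) in neuroblast-biased over wildtype meRIP. In the wildtype over *Mettl3* null ratio they ran from -0.29 to 0.3 (*ChAT*), -0.09 to 0.61 (*nAChRbeta1*), -0.82 to 0.14 (*nAChRbeta2*) and -0.62 to 0.35 (*mAChR-A*). In the neuroblast-biased over *Mettl3* null ratio they ran from -0.24 to 0.73 (*ChAT*), -0.16 to 0.83 (*nAChRalpha2*), -0.01 to 0.68 (*nAChRbeta1*) and -0.38 to 0.76 (*mAChR-A*). In the neuroblast-biased over wildtype ratio they ran from -0.45 to 0.11 (*Ace*), -0.25 to 0.72 (*ChAT*), -0.18 to 1.16 (*nAChRalpha1*), -0.22 to 0.3 (*nAChRbeta1*), -0.35 to 0.49 (*nAChRalpha5*), -1.03 to 0.02 (*nAChRalpha6*) and -0.23 to 0.9 (*mAChR-A*). Where this left 1 library in a group, its spread was taken from the other groups.

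Over all genes, calls in input (498 higher, 762 lower) became 1071 and 1474 with DESeq2; in wildtype over *Mettl3* null meRIP (1576, 580) 896 and 2962 with library size and 1344 and 1188 with upper quartiles; in neuroblast-biased over *Mettl3* null meRIP (1955, 1727) 800 and 3167 with library size; in the wildtype ratio (518, 41) 273 and 238 with library size and 904 and 55 with only the groups compared; and in the neuroblast-biased ratio (442, 24) 750 and 120 with DESeq2, 177 and 1 with weights, 201 and 74 with library size and 154 and 1 with only the groups compared. With a library left out, higher and lower calls ran from 153 to 516 and 332 to 812 in input, 973 to 1780 and 101 to 714 in wildtype over *Mettl3* null meRIP, 1071 to 1921 and 1269 to 1868 in neuroblast-biased over *Mettl3* null meRIP, 1 to 754 and 0 to 73 in the wildtype ratio and 62 to 831 and 3 to 353 in the neuroblast-biased ratio. With longest transcripts in place of joined exons, 7 of 10 members kept their rank in TPM.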
